A study of Homo sapiens with 6 samples.

Results

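The STEAP genes of the long arm of chromosome 7 were followed through the 100 bins of 40 kb between 87 and 91 Mb (hg19), of 64692 bins in the genome with a contact within their chromosome. The members were set by gene position, with earlier results of these data known. STEAP4 (ENSG00000127954, chr7:87900207-87936209, minus strand) lay in 2 bins, and STEAP1 (ENSG00000164647, chr7:89783770-89794143, plus strand) and STEAP2 (ENSG00000157214, chr7:89796904-89867451, plus strand) lay in 3 bins, of which STEAP1 shared its only bin with the start of STEAP2. All 100 bins passed the filter on low contact counts. The data are Hi-C maps, in which ligated read pairs join places of the genome that lay close together, of LNCaP, an established line of androgen-sensitive prostate cancer cells. Cells were transfected with non-targeting siRNA at 20 nM (control siRNA, 2 libraries) or with pooled CTCF siRNA at 20 nM (4 libraries) for 144 h, with a further transfection halfway, and cross-linked chromatin was cut with the restriction enzyme BglII. By their names, the 4 CTCF siRNA libraries may be repeats of 2 replicates, which the labels do not settle. The libraries of a condition had been pooled into 1 map, so the spread between replicates is unknown for every difference below, and each interval covers counting error only. The level of CTCF after siRNA is not measured by these files.

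STEAP stands for six-transmembrane epithelial antigen of the prostate. STEAP2 and STEAP4 are metalloreductases that reduce iron and copper at membranes. STEAP1, which is abundant on prostate cancer cells, lacks the reductase domain at the N terminus of its relatives. CTCF is a zinc-finger protein that, together with cohesin, holds the bases of chromatin loops and marks many borders of topologically associated domains (TADs), stretches within which contacts are more frequent than across their ends. A TAD border between genes can therefore set which of them share regulatory surroundings.

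The sequence around these borders was searched for the CTCF core consensus, a motif of 12 bases, on both strands of GRCh37, the assembly behind hg19. Only sequences that fit the consensus at every base were counted, so motifs that depart from it were missed. The region held 11 matches in 11 of its 100 bins, against 12.9% of the 3887 bins of chromosome 7 that held at least 1. The border at 89.74 Mb, between STEAP4 and STEAP1, had 2 matches within its bin and the bins beside it, the border at 87.06 Mb had 1, and those at 87.82 and 90.66 Mb had none. The 3 matches are shown with the core in capitals and 10 bases on each side, read 5′ to 3′ on the strand of the match. They lie in the bins of the borders or, for the match upstream of STEAP1, in the bin beside, 43.7 kb from the border.
Border at 87.06 Mb, within ABCB4, chr7:87046184-87046215, minus strand: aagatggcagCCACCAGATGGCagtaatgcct
Border at 89.74 Mb, outside protein-coding genes, chr7:89744497-89744528, minus strand: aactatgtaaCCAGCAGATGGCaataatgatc
Upstream of STEAP1, chr7:89783693-89783724, plus strand: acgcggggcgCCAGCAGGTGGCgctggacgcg

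The match upstream of STEAP1 ended 55 bases before the annotated start of the gene. The 250 bases before that start had a GC content of 62.8% and are shown on the plus strand, chr7:89783520-89783769, with the match in capitals.
STEAP1 upstream: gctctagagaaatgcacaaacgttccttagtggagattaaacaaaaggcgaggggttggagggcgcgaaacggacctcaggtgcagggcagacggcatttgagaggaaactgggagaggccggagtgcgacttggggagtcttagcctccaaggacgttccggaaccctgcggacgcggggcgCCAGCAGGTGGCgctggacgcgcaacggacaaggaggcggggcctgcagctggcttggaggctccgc
A match describes these letters only. Binding of CTCF to any of them was not analysed here.

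Contacts within chromosomes numbered 13665306 (control) against 56304139 (CTCF siRNA), so single bins were measured less precisely in the control. The region's bins held 73 to 805 cis contacts in control, with a median of 429.5 against 388 for usable bins of chromosome 7. In CTCF siRNA they held 204 to 2089, with a median of 1094 against 1310. The region was thus covered above the chromosome's median in control and below it in CTCF siRNA. Its GC content was 36.9%, against a median of 39.4% over the bins of the chromosome. Observed over expected contacts within the region, with the expected count taken at the same distance over chromosome 7, were 1.09 (95% interval 1.07 to 1.11) in control and 0.651 (0.644 to 0.658) in CTCF siRNA. After iterative balancing, which gives every bin the same total, they were 0.952 and 0.943. Values after balancing are therefore given beside the main contact ratios and insulation changes.

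The bin that holds STEAP1 was the most sparsely covered of the region in both maps. The control map had 73 cis contacts there and the CTCF siRNA map 204, with 0 and 2 contacts between its own fragments where 44.4 and 191.7 were expected. The bin held 8 BglII sites, against a median of 11 over the region, and the start of STEAP1 lay on a BglII fragment of 4.83 kb, longer than the median fragment of 2349 bases. The role of these properties in the low counts was not tested.

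STEAP4 and the pair STEAP1 and STEAP2 were in different TADs in both conditions. In control, STEAP4 lay in a TAD of 1920 kb from 87.82 to 89.74 Mb together with SRI, which encodes the calcium-binding protein sorcin, ZNF804B and TEX47. STEAP1 and STEAP2 lay in the next TAD, of 920 kb from 89.74 to 90.66 Mb, with CFAP69, FAM237B, GTPBP10, CLDN12 (a claudin of tight junctions) and PTTG1IP2. In CTCF siRNA, STEAP4 lay in a TAD of 2960 kb from 86.78 to 89.74 Mb that also took in CROT, ABCB4, ABCB1 (the multidrug efflux pump P-glycoprotein), RUNDC3B, SLC25A40, DBF4 and the whole of ADAM22, so that it held 11 whole protein-coding genes of the region where the control TAD of STEAP4 held 4. STEAP1 and STEAP2 then lay in a TAD of 2040 kb from 89.74 to 91.78 Mb, which also held the Wnt receptor gene FZD1 and the whole of the kinase gene CDK14, whose start already lay in the control TAD. It held 9 whole protein-coding genes of the region, and genes beyond 91 Mb were not counted.

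Of the 4 control boundaries in the region, the 1 between the STEAP genes, at 89.74 Mb, was listed at the same position in CTCF siRNA. The other 3, at 87.06, 87.82 and 90.66 Mb, were lost, against 47.4% of the 3475 control boundaries of the genome, and 0 were gained within the region. Outside it, the left end of the CTCF siRNA TAD of STEAP4, at 86.78 Mb, was shared. The right end of the CTCF siRNA TAD of STEAP1 and STEAP2, at 91.78 Mb, was gained. The kept boundary lay 43.8 kb before the start of STEAP1, and the lost boundary at 87.82 Mb lay 116.2 kb from the start of STEAP4. Edges in both lists stand at the middle of a 40 kb bin, so their positions are known to within that bin. ADAM22 spanned the lost boundary at 87.82 Mb and CDK14 the lost boundary at 90.66 Mb.

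**Figure D1:**
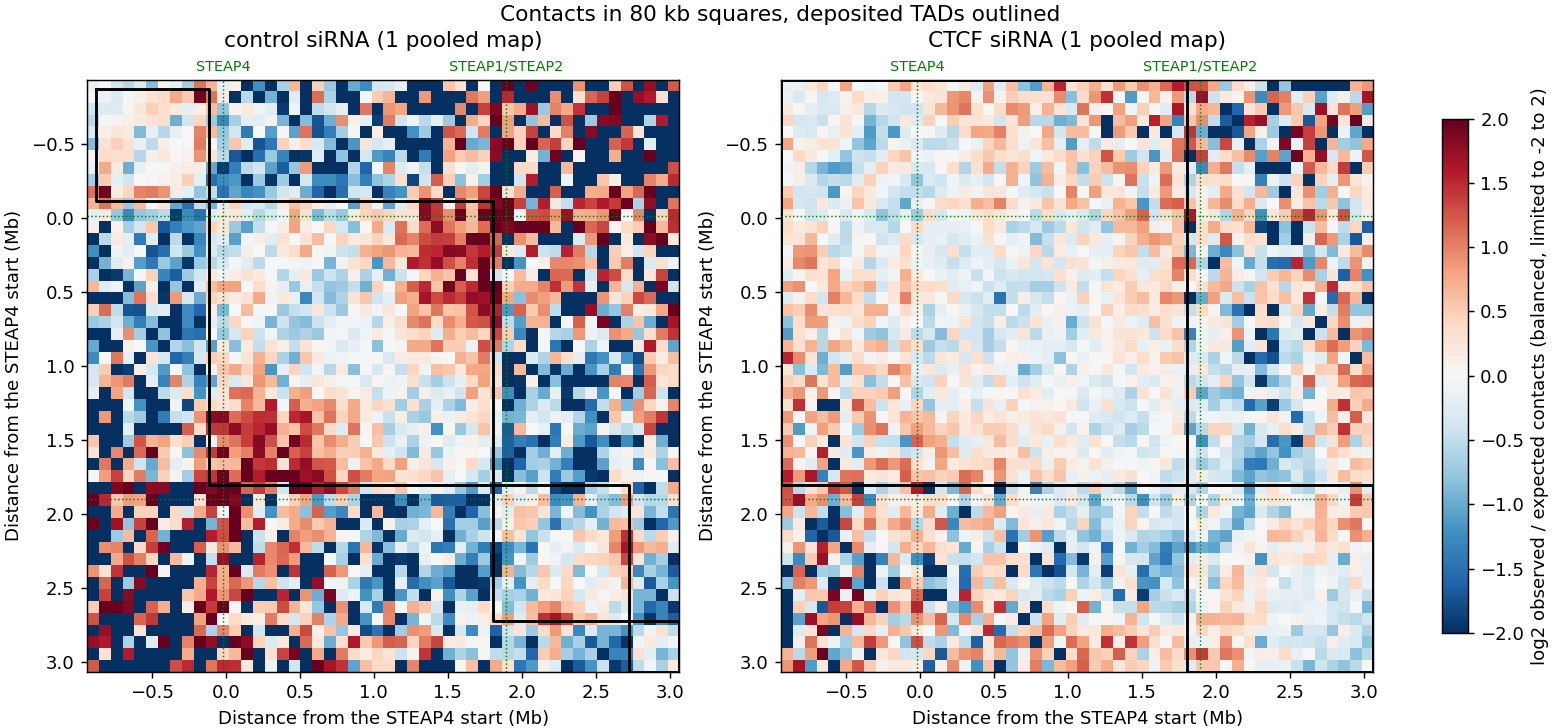
Contacts of the region as log2 of observed over expected after balancing, in squares of 80 kb, for control siRNA (left) and CTCF siRNA (right), with both axes in Mb from the STEAP4 start. Black outlines are the deposited TADs and dotted green lines mark STEAP4 and the STEAP1/STEAP2 pair. The red corner of the control TAD of STEAP4, where its ends meet, is paler in CTCF siRNA, and only the outline between the genes is common to both lists.

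The strength of each boundary was described by an insulation value, which divides observed over expected contacts across a bin by the same ratio within its flanks of 400 kb, on a log2 scale, and is lower where fewer contacts cross. At the kept boundary between STEAP4 and STEAP1 it was -1.24 ± 0.12 (counting SD) in control and -0.21 ± 0.06 in CTCF siRNA, a change of 1.03 ± 0.13. At the lost boundaries it changed by 0.48 ± 0.11 (87.06 Mb), 0.90 ± 0.12 (87.82 Mb) and 0.82 ± 0.11 (90.66 Mb). With flanks of 200 kb the change was 1.95 at the kept boundary and 0.0879 at 87.06 Mb. With flanks of 800 kb it was 0.821 at the kept boundary and 0.324, 0.999 and 0.6003 at the lost ones, so the order of the kept boundary and that at 87.82 Mb depended on the flank length. Of the 4, 3 changed by at least 0.5 upward, against 48.1% of the 2990 control boundaries of the genome with a value. Over the genome the median change was 0.35 at 1515 shared and 0.60 at 1475 lost boundaries, with 95% of shared ones between -0.47 and 1.33.

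Which side of the ratio differed between the maps depended on balancing. Across the kept boundary there were 167 contacts where 384.5 were expected in control (observed over expected 0.434) and 761 where 1623 were expected in CTCF siRNA (0.469), which is nearly the same. On counts, the rise of the insulation value thus came mostly from a lower ratio within the flanks in CTCF siRNA. After balancing, it was observed over expected across the boundary that differed more, at 0.426 and 0.730, while that of the flanks was 0.988 and 0.843. The change of the insulation value was then 1.01, higher than at 98.4% of 58685 autosomal bins, whose median change was -0.01. This rank is among all bins, whereas the bin was taken as a control boundary, and no rank among boundaries was computed. On counts, rises of at least 0.5 were found at 48.1% of control boundaries and at 12.9% of usable bins. At the lost boundaries the balanced changes were 0.54, 0.93 and 0.91.

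Near the STEAP1 start, control had a broad minimum of insulation, and the lowest bin of CTCF siRNA lay within it. In control, values between -1.17 and -1.24 ran over 4 neighbouring bins from 89680001 to 89840000, which hold the boundary, STEAP1 and the first part of STEAP2. In CTCF siRNA the value at the boundary bin was -0.21, and the lowest value of the whole region, -0.58 ± 0.06, stood at the STEAP2 bin that starts at 89800001. The bins from there to 90040000 had values between -0.37 and -0.58 in CTCF siRNA. The bin that starts at 89800001 had -1.22 ± 0.12 in control, against -1.24 ± 0.12 at the boundary bin. Control thus did not resolve which of them was lower, and a shift between the maps was not tested. These values are on counts, and the bins that start at 89720001 and 89760001 held only 176 and 73 cis contacts in control. In control the lowest value of the region was -1.26, at the bin beside the lost boundary at 90.66 Mb.

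At the bins of the genes themselves, insulation values averaged -0.23 (control) and 0.32 (CTCF siRNA) for STEAP4, a change of 0.55, and -1.11 and -0.47 for STEAP1 and STEAP2, a change of 0.64. After balancing the changes were 0.53 and 0.55. For STEAP4 this rested on the flank length: with flanks of 200 kb the change was -0.03, and the reason was not tested. Over the region, 21 of 100 bins changed upward by at least 0.5, against 12.9% of usable bins of the genome, and 1 changed downward, against 3.82%. Neighbouring bins share contacts, so these bins are not independent. The median change over the region was 0.07, with a range from -0.56 to 1.04.

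**Figure D2:**
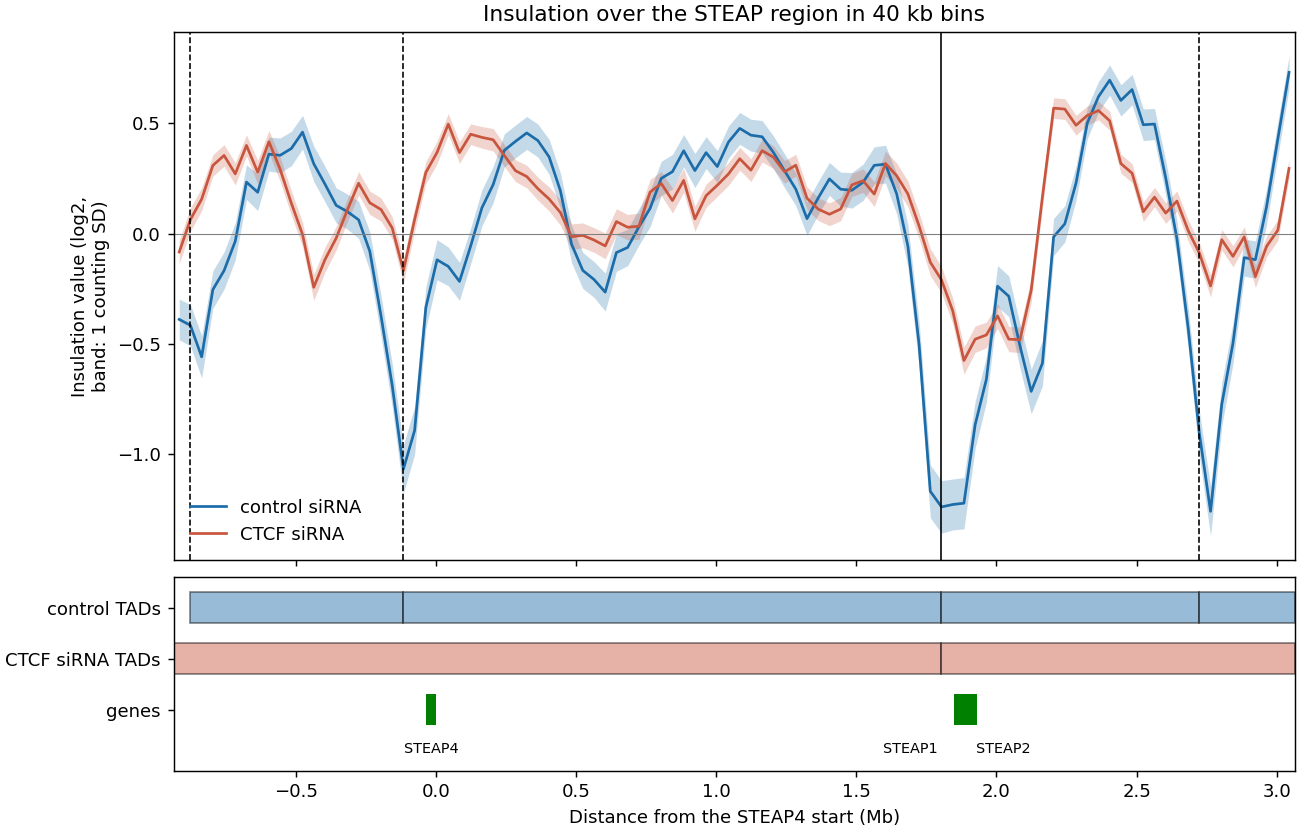
Insulation value (log2) of each 40 kb bin against distance from the STEAP4 start in Mb, for control siRNA (blue) and CTCF siRNA (red), with bands of 1 counting SD, and below them the deposited TADs and the STEAP genes. Vertical lines are control boundaries, solid for the kept one and dashed for the 3 lost ones, and at all 4 the red line lies above the blue one.

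The STEAP4 bins and the STEAP1 and STEAP2 bins, on either side of a boundary, had few contacts with each other. The 6 pairs of gene bins held 6 contacts where 1.98 were expected in control, an observed over expected ratio of 3.04 (exact Poisson 95% interval 1.115 to 6.61). This lay above 94.5% of 56062 autosomal blocks of the same shape and distance, and within the range of 0 to 4.05 that held 95% of them. In CTCF siRNA they held 9 where 8.62 were expected, a ratio of 1.04 (0.477 to 1.98). The log2 change was -1.54 with an exact conditional interval from -3.20 to 0.23, which includes 0, so a change was not detectable at this depth for the gene bins alone. After balancing the ratios were 4.76 and 1.82 and the change -1.39. Balancing gives more weight to sparsely covered bins, and these values have no interval. The bin of STEAP1 gave 1 of the 6 control contacts and had a balanced control ratio of 5.996. Between the bin of the STEAP4 start and the bin that holds the starts of STEAP1 and STEAP2 there was no contact in control, where 0.357 were expected, and 1 in CTCF siRNA, where 1.51 were expected. Of the 9 contacts in CTCF siRNA, 6 joined the bin of the STEAP4 start with the bin that starts at 89800001, and of the 6 in control, 3 joined it with the last bin of STEAP2.

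When both sides were widened by 200 kb, the block held 156 bin pairs and the difference exceeded the counting error. There were 147 contacts where 53.7 were expected in control (2.74, 95% interval 2.31 to 3.22) and 231 where 231.6 were expected in CTCF siRNA (0.997, 0.873 to 1.14). The control value lay above 96.0% of 52038 autosomal blocks of the same shape and distance and the CTCF siRNA value above 61.3%. The log2 change was -1.46 (-1.76 to -1.15), lower than in all but 2.5% of those blocks, whose median change was 0.13. A decrease of at least 0.5 was found in 20.8% of the blocks. After balancing, the ratios were 2.75 and 1.29 and the change -1.09, lower than in all but 0.7% of the blocks.

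Splitting this block at the edges of the control TAD of STEAP4, a split chosen after the data were seen, showed where the control contacts lay. The bins that hold those edges are in none of the parts, so the parts do not add up to the block. The part inside both edges, the corner of that TAD, held 68 contacts where 14.1 were expected in control (4.83, 3.75 to 6.13) and 83 where 61.9 were expected in CTCF siRNA (1.34, 1.07 to 1.66). The part inside the left edge but beyond 89.74 Mb, which holds STEAP4 on one side and STEAP1 and STEAP2 on the other, had 48 where 21.2 were expected (2.27, 1.67 to 3.01) and 72 of 91 expected (0.791, 0.619 to 0.996). The log2 changes were -1.85 (-2.33 to -1.37) and -1.52 (-2.07 to -0.96), and after balancing -1.13 and -1.43. The other parts, to the left of 87.82 Mb, held few contacts. Beyond both edges there were 4 in control and 18 in CTCF siRNA, with ratios of 0.629 and 0.674 and a change of 0.10 (-1.501 to 2.12), which turned to -0.49 after balancing, with ratios of 1.51 and 1.08. Beyond the left edge but inside the right one there were 8 where 3.98 were expected (2.01, 0.868 to 3.96) and 19 where 17.3 were expected (1.101, 0.663 to 1.72), a change of -0.87 (-2.13 to 0.53), or -0.11 after balancing. Of the 147 control contacts of the widened block, 68 thus lay in the corner of the TAD that holds STEAP4 and 48 in the part beside it over the boundary at 89.74 Mb. These parts also held 32 and 64 of the 156 bin pairs of the block, and 83 and 72 of its 231 contacts in CTCF siRNA.

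**Figure D3:**
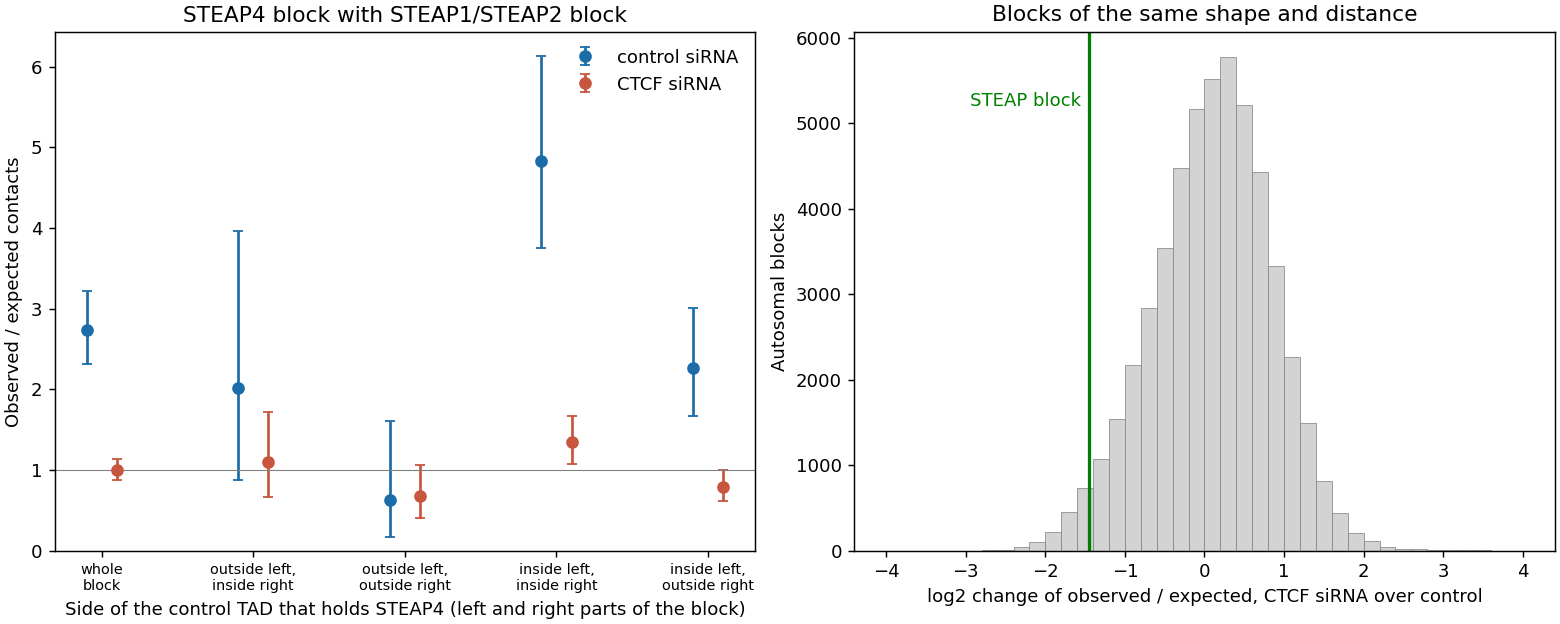
Left, observed over expected contacts between the widened STEAP4 and STEAP1/STEAP2 blocks and their 4 parts inside or outside the control TAD of STEAP4, with exact Poisson 95% intervals, control siRNA in blue and CTCF siRNA in red. Bins that hold the TAD edges are in none of the 4 parts. Right, the log2 change of 52038 autosomal blocks of the same shape and distance, with the STEAP block at -1.46 marked in green, in the lower tail.

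Seen from STEAP4, contacts with the far end of its own TAD and with the TAD of STEAP1 and STEAP2 were lower in CTCF siRNA, and those with the TADs to the left and beyond 90.66 Mb had intervals that include 0. In windows of 200 kb, control contacts were above expected around the right end of its TAD: 24 where 6.19 were expected from 89.2 to 89.4 Mb (3.88), 15 where 4.65 were expected from 89.4 to 89.6 Mb (3.23) and 18 where 3.78 were expected from 89.6 to 89.8 Mb (4.76), a window that runs past the edge at 89.74 Mb and holds STEAP1 and the start of STEAP2. The same windows gave 1.62, 1.44 and 1.42 in CTCF siRNA. Their log2 changes were -1.26, -1.16 and -1.74, each with an interval below 0, and -0.71, -0.70 and -0.99 after balancing. Further along, from 89.8 Mb to the end of the region, the interval of every window included 0. The change from 90.6 to 90.8 Mb, with 3 contacts in control, was upward, at 0.28 and 0.34 after balancing. The other windows there were downward, between -0.40 and -1.59 on counts and between -0.17 and -1.54 after balancing.

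The counts of the STEAP bins by TAD and by part of a TAD, here and below, were chosen after the data were seen. The TAD edges were called from the same control map, so the control values are not independent of them. By TAD, the STEAP4 bins met the last 600 kb of their own control TAD 61 times in control where 16.1 were expected (3.78) and 102 times in CTCF siRNA where 71.3 were expected (1.43), a log2 change of -1.40 (-1.87 to -0.92) that was -0.82 after balancing. With the 480 kb and the 640 kb before it, counted from beside the gene, the changes were -0.39 and -0.54 on counts and 0.09 and -0.01 after balancing, against -0.82 at the far end. With the control TAD of STEAP1 and STEAP2, the STEAP4 bins had 33 contacts where 11.1 were expected (2.97) and 67 where 46.1 were expected (1.45), a change of -1.03 (-1.65 to -0.38), or -0.85 after balancing. With the next TAD, from 90.66 to 92.18 Mb, they had 17 where 9.94 were expected (1.71) and 61 where 36.9 were expected (1.65), a change of -0.05 (-0.84 to 0.82), or 0.17 after balancing. With the TAD on the other side of the lost boundary at 87.82 Mb they had 79 where 133.2 were expected (0.593) and 360 where 561.8 were expected (0.641), a change of 0.11 (-0.24 to 0.48), or 0.71 after balancing.

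Seen from STEAP1 and STEAP2, contacts with the far end of the STEAP4 TAD were lower in CTCF siRNA and those with its near end higher. The window from 87.8 to 88.0 Mb, which holds STEAP4 and SRI, had 17 contacts where 4.89 were expected in control (3.48, 2.02 to 5.56) and 16 where 21.2 were expected in CTCF siRNA (0.756, 0.432 to 1.23). Its log2 change was -2.20 (-3.28 to -1.13), and -2.04 after balancing. Within the control TAD of STEAP4, the 640 kb at the end that holds STEAP4 gave 1.17 and 0.536, a change of -1.13 (-1.85 to -0.38). The 600 kb next to the kept boundary gave 34 contacts where 201.3 were expected (0.169, 0.117 to 0.236) and 311 where 840.5 were expected (0.370, 0.330 to 0.414), a change of 1.13 (0.62 to 1.69). After balancing these changes were -1.27 and 1.43. With the rest of their own control TAD, the STEAP1 and STEAP2 bins had 130 contacts where 216.2 were expected (0.601) and 469 where 907.1 were expected (0.517), a change of -0.22 (-0.50 to 0.07), or 0.18 after balancing. Across the lost boundary at 90.66 Mb, with the TAD up to 92.18 Mb, they had 34 where 61.9 were expected (0.549) and 267 where 275.7 were expected (0.968), a change of 0.82 (0.30 to 1.38), or 0.93 after balancing.

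Of the windows at least 200 kb from STEAP1 and STEAP2 with at least 10 contacts expected in control, 88.8 to 89.0 Mb and 89.0 to 89.2 Mb had the largest changes upward. In control they held 2 contacts of 18.3 expected and 3 of 27.0 expected, and in CTCF siRNA 39 of 83.0 and 45 of 120.1. The changes were 2.103 (0.15 to 5.20) and 1.75 (0.11 to 4.08), wide because of the few control contacts, and 1.36 and 1.40 after balancing. The next, from 90.8 to 91 Mb, which holds FZD1, had a change of 0.80 (-0.27 to 2.07), or 0.77 after balancing. The windows from 88.6 to 88.8 Mb and from 88.4 to 88.6 Mb, over ZNF804B, had the largest changes downward, -1.02 and -1.24, with intervals that include 0, and -1.27 and -1.90 after balancing. Under the same rule for STEAP4, the windows from 88.8 to 89.0 Mb (-1.02, -1.83 to -0.15), 88.4 to 88.6 Mb (-0.63, -1.23 to 0.01) and 88.2 to 88.4 Mb (-0.59, -1.04 to -0.13) had the largest changes downward, of which only the first kept its direction after balancing (-0.45, 0.09 and 0.09). The upward ones, 0.20 from 87.2 to 87.4 Mb and 0.09 from 87.4 to 87.6 Mb, had intervals that include 0 and were 0.79 and 0.66 after balancing.

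**Figure D4:**
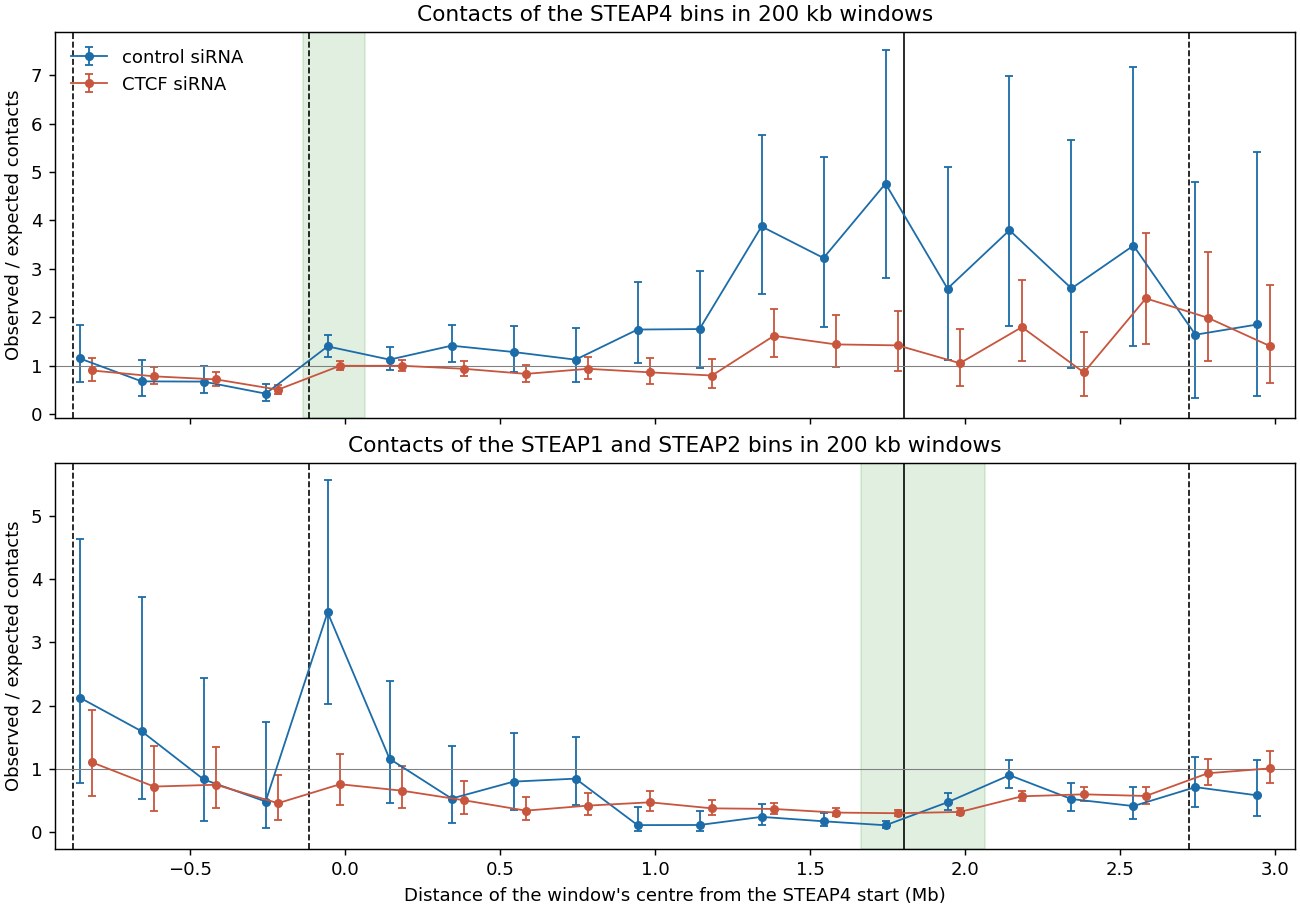
Observed over expected contacts of the STEAP4 bins (top) and of the STEAP1 and STEAP2 bins (bottom) with 200 kb windows, against the distance of the window from the STEAP4 start in Mb, with exact Poisson 95% intervals. Control siRNA is blue, CTCF siRNA red, green bands are windows with the genes' own bins, and vertical lines are control boundaries. The blue peak of the lower panel lies at STEAP4, at 3.48, where the red value is 0.756.

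Among the 20 protein-coding genes of the region, some pairings with a STEAP gene had a change whose interval left out 0. All of these were downward on counts, and their share was above that of gene pairs of the genome. Over 528063 pairs of autosomal protein-coding genes whose bins start at most 3000 kb apart, the interval of the change lay below 0 in 3.07% and above 0 in 10.1%. The median change, over the 366436 pairs for which it could be computed, was 0.20, or -0.11 after balancing. With the STEAP4 bins, the interval lay below 0 for 4 of 19 genes and above 0 for none, and the median change was -0.69. The 4 were SRI (-0.50), ZNF804B (-0.69), TEX47 (-1.22) and CFAP69 (-2.37, from 6 and 5 contacts). After balancing the median change was -0.06, and these 4 values were 0.09, -0.06, -0.39 and -1.98, so that SRI turned upward. With the STEAP1 and STEAP2 bins, the interval lay below 0 for 5 of 18 genes and above 0 for none, with a median change of -0.96, or -0.61 after balancing. The 5 were SRI (-2.52), ADAM22 (-1.62), CFAP69 (-0.96), CLDN12 (-0.80) and PTTG1IP2 (-1.07), and after balancing they were -2.07, -1.68, -0.22, -0.51 and -0.61. Both median changes are over 17 genes. They leave out FAM237B and FZD1 with STEAP4 and DBF4 with STEAP1 and STEAP2, which had 0 contacts in control and some in CTCF siRNA. SRI, which lies between the lost boundary at 87.82 Mb and STEAP4, had 8 contacts with STEAP1 and STEAP2 in control where 1.85 were expected (4.32, 1.87 to 8.51) and 6 in CTCF siRNA where 7.96 were expected (0.754, 0.277 to 1.64). CLDN12, inside the TAD of STEAP1 and STEAP2, had 68 where 67.7 were expected (1.005) and 162 where 280.5 were expected (0.578). PTTG1IP2 lies within bins of CLDN12, ADAM22 shares a bin with SRI, and TEX47 lies within bins of ZNF804B, so these counts overlap. CFAP69 shares the bin that starts at 89840001 with STEAP2. That bin gave 1 and 3 of the 6 control contacts of CFAP69 with the 2 STEAP4 bins, and 0 in CTCF siRNA. The change of CFAP69 with STEAP4 is therefore not separate from that of STEAP2 with STEAP4. The ratios on counts include the lower level of the whole region in CTCF siRNA. FZD1, across the lost boundary at 90.66 Mb, had 2 and 20 contacts with STEAP1 and STEAP2 where 2.73 and 12.7 were expected, a change of 1.11 (-0.94 to 4.25), or 1.58 after balancing.

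Contacts between whole neighbouring control TADs depended on whether counts were balanced. Across the lost boundary at 87.82 Mb the ratio of observed to expected was 0.679 in control and 0.667 in CTCF siRNA, a log2 change of -0.03 (-0.15 to 0.10) on counts and 0.79 after balancing. Across the kept boundary at 89.74 Mb it was 0.720 and 0.561, a change of -0.36 (-0.48 to -0.24) on counts and 0.21 after balancing. Across 90.66 Mb it was 0.979 and 0.930, with changes of -0.07 (-0.18 to 0.03) and 0.37. None of the 3 pairs gained 0.5 or more on counts, against 41.8% of 1996 neighbouring pairs on the autosomes. After balancing, the change across 87.82 Mb lay above 92.4% of those pairs, that across the kept boundary above 40% and that across 90.66 Mb above 58.9%, and the median over all pairs was 0.29. On this scale the change was largest across the lost boundary beside STEAP4 and smallest across the kept boundary, and that order was not tested.

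The direction of contacts within 2 Mb, the quantity on which the TAD caller of the study works, was less one-sided at the genes in CTCF siRNA. For STEAP4, 62.9% of them pointed to higher coordinates in control (Wilson 95% interval 58.9 to 66.8%, 569 contacts) and 55.9% in CTCF siRNA (53.6 to 58.1%, 1806 contacts). For STEAP1 and STEAP2 it was 69.7% (64.1 to 74.7%, 287 contacts) and 61.9% (59.2 to 64.6%, 1279 contacts). Within 1 Mb the difference for STEAP1 and STEAP2 was larger, at -20.0 percentage points. Taking the bins of the transcription starts alone turned both differences, to 0.47 and 7.97 percentage points upward. The share of all contacts of the bins that stayed on chromosome 7 was 51.9% and 55.2% for STEAP4 and 38.5% and 47.5% for STEAP1 and STEAP2, against 48.6% and 49.7% for the region.

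At the scale of compartments, the megabase pattern that separates active from inactive chromatin, the first eigenvector of the contact correlations was computed in bins of 500 kb and oriented by gene density. The bins of STEAP4 and of STEAP1 and STEAP2 were negative in control, at -0.74 and -1.02 in units of the SD over the long arm. In CTCF siRNA they were 0.19 and 0.10, but after balancing -0.82 and -0.60. Of the 8 bins of the region, 3 went from negative to positive on counts, against 9.38% of the 192 bins of the long arm. After balancing 0 did, against 3.61% of 194 bins. The sign in CTCF siRNA at the STEAP genes was therefore not settled by these maps.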

How the data were processed

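Hi-C libraries of LNCaP cells were mapped to hg19 by the authors with HiCUP and Bowtie 1.1.0, with FastQC 0.11.2, SAMtools 1.2 and Picard 1.121 named in the submitters' processing notes. The authors pooled libraries per condition, counted contacts in 40 kb bins and called TADs from a directionality index. The deposited contact values, with no scaling for depth, are read-pair counts times a factor per bin at some positions. They had been taken as raw counts when the comparisons were chosen. Counts were recovered by division; every deposited value in the region was whole already. TAD edges were used as deposited. Members and lists were chosen with earlier results of these data known.

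Bins with at least 10% of the chromosome's median cis count in both maps were used, and an insulation value needed 50% of its bin pairs. Expected counts were means per distance on the chromosome. Boundaries within 40 kb were shared, and facing edges within 100 kb were 1 boundary. Intervals are 95%, exact Poisson, exact binomial or Wilson, and PCR copies are not independent molecules. Named genes were all protein-coding genes of the region (GENCODE on GRCh37) and, for each viewpoint, the 3 windows of 200 kb with the largest change each way, at least 200 kb away and with at least 10 contacts expected in control. On simulated maps, 97.4% of 76 insulation values fell within 2 SD. Those maps had independent counts, even coverage and known expected counts, so uneven coverage, PCR copies and replicate spread were not tested. Python 3.11.15, NumPy 2.4.6, pandas 2.3.3 and SciPy 1.17.1 were used. Alternatives were other flanks, expected counts, bin filters, block widths, boundary tolerances, distances, deposited values and balancing.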

Additional observations from a re-analysis of the deposited data

How the results depend on the processing

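Of 131 values recomputed for 29 results under 15 settings, 92 stayed within the counting interval of the value reported, 11 moved beyond it and 6 reversed. Direction was not compared where that interval included 0, nor for ratios of observed to expected. The other 22, from TAD lists and compartments, have no such interval and kept their direction or came within 1.5 times. Among these, lost control boundaries of the region were 2 instead of 3 when edges were joined within 400 kb, and those of the genome ranged from 39.6 to 60.6% with the rule for a shared boundary. Balancing, which gives each bin the same total, moved the change of the widened STEAP block to -1.09 and those between neighbouring TADs to 0.79 (87.82 Mb), 0.21 (89.74 Mb, reversed) and 0.37 (90.66 Mb). It also reversed the compartment values in CTCF siRNA to -0.82 (STEAP4) and -0.60 (STEAP1 and STEAP2), an alternative added after the data were seen. Widening the STEAP block by 400 kb moved its control ratio from 2.74 to 2.24, while its change, -1.34, stayed within the interval. With flanks of 200 kb the insulation change was 0.0879 at 87.06 Mb and 1.95 at 89.74 Mb, and its mean over gene bins was -0.0276 for STEAP4 (reversed) and 1.04 for STEAP1 and STEAP2. With flanks of 800 kb it was 0.82 for STEAP4. The difference in downstream share reversed to 0.47 (STEAP4) and 7.97 points (STEAP1 and STEAP2) from the bins of the transcription starts, and was -20.0 points for STEAP1 and STEAP2 within 1 Mb. The causes were not tested. Leaving out bins under 30% of the median, which drops the bin of STEAP1, moved none of the results with an interval beyond it, the largest shift of a downstream share being to -10.9 points for STEAP1 and STEAP2. No paired analysis was possible because each deposited map pools all libraries of its siRNA, and no library could be left out for the same reason. In the gene bins alone, 6 control contacts limited what could be detected, and the start bins alone held 0.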
